A study of Drosophila melanogaster with 8 samples.

Results

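The mitochondrial ribosomal protein genes encode the protein part of the ribosome that works inside mitochondria. This ribosome translates the few messages of the mitochondrial genome, which encode core subunits of the respiratory chain and of the ATP synthase. Its RNA is made in the organelle, whereas its proteins are encoded in the nucleus, made in the cytosol and imported. Some of these proteins have bacterial counterparts, and others are found in mitochondria only. The germline amplifies its mitochondria during oogenesis and passes them to the egg.

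Members were all genes whose current symbol begins with mRpL or mRpS and a number, the names given to proteins of the large and the small subunit, and which had a probe set annotated to 1 gene only. This gave 69 of the 11982 genes that such a probe set named on the array, 44 mRpL and 25 mRpS genes, and 73 genes of the RefSeq annotation carried such a symbol. A total of 71 probe sets read the 69 members. Only mRpS11 and mRpL47 had 2 probe sets, of which the brighter stood for the gene. mRpL34 and mRpL37 were not analysed here, and mRpL53 and mRpS10 were named only by probe sets that they share with another gene. The probe sets of 66 members were of the type designed to match a single transcript, those of 2 members of the type common to transcripts of 1 gene, and that of mRpS18B of the type whose probes can also match other genes.

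Ovary RNA was hybridized to 8 Affymetrix expression arrays, 1 array per sample, and each sample pooled about 100 ovary pairs of virgin females. The 4 null samples carried otefinPk and a chk2 mutation on the same second chromosome, over a second chromosome with otefinG. The 4 het samples carried such an otefinPk and chk2 chromosome over the balancer CyO, which has a wild-type otefin gene. In null and in het alike, the chk2 mutation was Chk2P6 in replicates 3 and 4 and Chk2P30 in replicates 1 and 2, so every sample had 1 mutant copy of chk2 and no sample was wild type for either gene. The labels give an age of 4 to 6 h after eclosion, whereas the methods give 1 day, and the methods place the other ote allele, B279G, on the P30 chromosome. The P6 and P30 backgrounds also differ in replicate number and in any other variant of those chromosomes, and these cannot be told apart. The study compared null with het ovaries to see which RNAs respond to the loss of Otefin, a protein of the nuclear lamina, when the checkpoint kinase Chk2 is reduced.

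The deposited values were normalized log2 signals, whose log base was read from their range of 2.37 to 14.5. Ote itself had a log2 signal of 7.58, 7.48, 8.56 and 8.66 in the arrays labelled null 1 to 4, against 9.26, 7.27, 9.66 and 9.29 in those labelled het 1 to 4. The lowest of the 8 values was thus that of an array labelled het (het 2). Groups here follow the labels, and results are also given without the arrays labelled het 2 and null 4. Correlations between arrays lay between 0.957 and 0.990, and 183 of 18952 probe sets were controls and left out of the tests. Of 8 listed germline markers 6 were measured, with a mean log2 signal of 10.4 to 10.9 in null and 10.5 to 11.0 in het arrays, and all 6 were lower in null (median log2 difference −0.14, and −0.24 within P6). Muscle markers had a negative interaction of label and background for 6 of 6 measured genes of 9 listed (median −0.53), with a mean of 9.90 to 10.91 in null and 10.23 to 10.82 in het arrays. Fat body markers were lower in P6 for 3 of 3 measured genes of 7 listed (median −0.79), with a mean of 9.05 to 10.20 in P6 and 10.19 to 10.52 in P30 arrays. Markers of follicle cells, which surround the germ cells, were higher in P6 for 9 of 9 measured genes of 10 listed (median log2 difference 0.65), with a mean of 9.21 to 10.07 in P6 arrays and 8.35 to 9.38 in P30 arrays. Salivary gland glue genes, foreign to the ovary, averaged 8.43 and 8.83 in null 1 and het 1 and 4.30 to 5.23 in the other 6 arrays. Midgut markers were higher in null for 9 of 10 measured genes, averaging 6.46 to 9.40 in null and 5.71 to 7.46 in het arrays. The 3′ minus 5′ log2 signal of the GAPDH control probes, a sign of RNA integrity and amplification, was 1.55 to 1.91 in null and 1.93 to 2.09 in het arrays. The same measure overlapped for actin (1.31 to 1.70 in null and 1.53 to 2.05 in het) and for eIF-4a (2.37 to 3.28 in null and 2.74 to 3.30 in het). By background, that of GAPDH was 1.55 to 1.95 in P6 and 1.90 to 2.09 in P30 arrays. The spiked control bioB was highest in null 2 and het 2, with log2 signals of 11.20 and 11.19. It was 10.20 to 10.64 in P6 arrays and 10.85 and 10.44 in null 1 and het 1. The part of such array differences in the results below was not tested. In these bulk samples, fewer cells of a type and less RNA per cell cannot be told apart, and the part of other cell types in the differences below was not tested.

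All members were bright, and most varied little. Their mean log2 signals ranged from 9.47 for mRpL48 to 13.10 for mRpS7, with a median of 11.83, but the brightness of a probe set depends on its probes, so no order of RNA levels between genes was read from them. The SD of a member over the 8 arrays ranged from 0.107 to 0.492, with a median of 0.192. The median SD was 0.339 over the 4131 genes with a mean log2 signal over 9, the members included, and 66 of the 69 members had a lower one. These genes were not matched to the members in brightness. The members' median signal lay above the mean signal of 94.6% of all genes.

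The steadiest members were mRpL49 (SD 0.107), mRpL51 (0.116), mRpS21 (0.120) and mRpS7 (0.122), a homologue of a bacterial protein in the head of the small subunit. mRpL49 had a log2 signal of 12.93, 12.76, 12.92 and 12.89 in null 1 to 4, against 12.94, 13.05, 12.78 and 12.74 in het 1 to 4. Its arrays thus lay within 0.31 of each other, with the het P30 arrays at the top. At the bottom were the het P6 arrays and a null P30 array, whose signal of 12.76 lay between them. The most variable were mRpL38 and mRpS22, neither of which has a bacterial counterpart, followed by mRpL2, a bacterial-type protein next to the peptidyl transferase centre, and by mRpS35, mRpL9 and mRpS5. mRpS22 had a log2 signal of 11.01, 10.96, 11.68 and 10.07 in null 1 to 4, against 11.03, 10.63, 11.43 and 10.85 in het 1 to 4. The extremes of mRpS22 and of mRpL2 were the same arrays, null 3 at the top and null 4 at the bottom, which are replicates of 1 genotype.

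**Figure D1:**
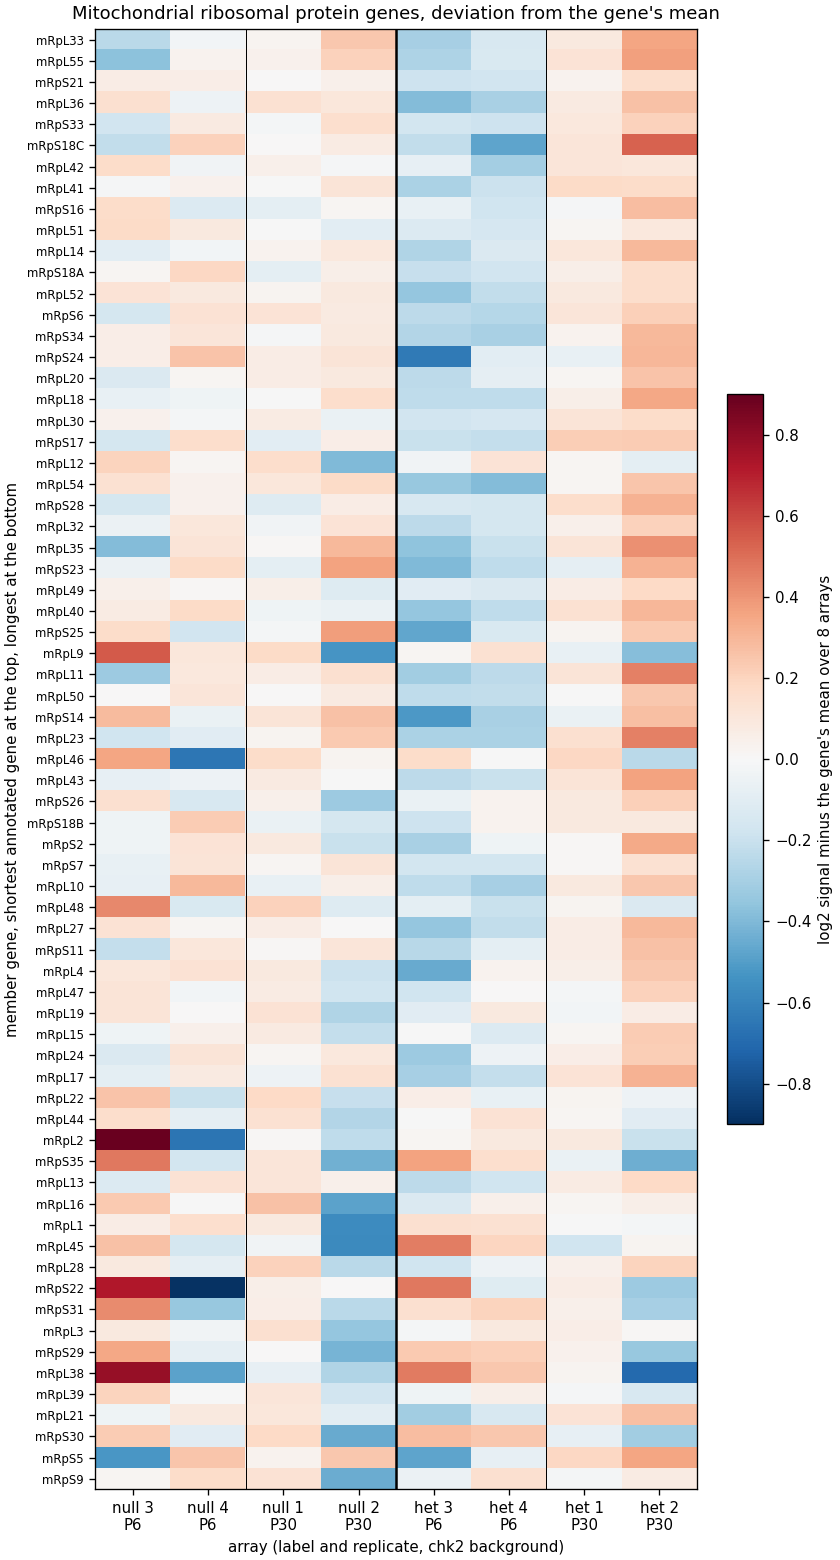
Log2 signal of each of the 69 members on each of the 8 arrays, as the deviation from that gene's mean (colour, red above and blue below), with members ordered from the shortest annotated gene at the top to the longest at the bottom. Most rows are blue in het 3 and het 4 and red in het 2, and the longer genes near the bottom are red in null 3 and blue in null 2.

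Null and het ovaries had nearly the same signals of mitochondrial ribosomal protein genes. Of the 69 members, 41 were higher and 28 lower in null, with a median log2 difference of 0.01 (−0.0072 over all probe sets, of which 48.2% were higher), and 54 differed by less than 0.1. None passed limma's test at an unadjusted p under 0.05, where 2.25% of all probe sets did, none at an adjusted p under 0.05 (0%), and none at a 2-fold change with an unadjusted p under 0.05 (0.149%). The unmoderated test, an analysis of variance that does not share the spread among genes, gave a count of 0 as well at each threshold. The methods name a one-way analysis of variance for this comparison. No member had all null arrays on 1 side of all het arrays (1.82% of all probe sets did). The median lay between −0.03 (without het 3, with 28 members higher in null) and 0.10 (without het 2, with 54 higher) when 1 array was left out. Without the arrays labelled het 2 and null 4, 53 members were higher in null, the median was 0.11 and 2 members had an unadjusted p under 0.05. The shares of all probe sets are not given for the fits with arrays left out, so these counts cannot be set against them.

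The largest difference in either direction was that of mRpS14, a bacterial-type protein of the small subunit's head. Its log2 signal was 10.56, 10.71, 10.73 and 10.38 in null 1 to 4, against 10.38, 10.72, 9.93 and 10.15 in het 1 to 4. The 2 het P6 arrays were the lowest, while het 2 lay among the highest null arrays. It averaged 10.59 ± 0.16 in null and 10.30 ± 0.34 in het (SD, n = 4 each), a 1.23-fold difference (log2 0.30, SE 0.18; limma, unadjusted p = 0.132; exact two-sided permutation test, p = 0.200).

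The other members with the highest differences were mRpS24 (log2 0.25, SE 0.19), mRpL54 (0.23, SE 0.15), mRpL48 (0.20, SE 0.15), mRpS23 (0.20, SE 0.18), mRpS25 (0.17, SE 0.18), mRpL36 (0.17, SE 0.16) and mRpL52 (0.16, SE 0.13). Those with the lowest were mRpL45 (−0.25, SE 0.21), mRpS26 (−0.14, SE 0.13) and mRpL1 (−0.13, SE 0.17). mRpL45, whose human homologue sits at the exit of the peptide tunnel facing the inner membrane, had a log2 signal of 10.26, 9.71, 10.55 and 10.12 in null 1 to 4, against 10.10, 10.31, 10.74 and 10.48 in het 1 to 4. Its lowest value was that of null 2, and the groups overlapped. The members mRpS28, mRpS29, mRpL3, mRpS9 and mRpS30 were lower in null by smaller margins, from −0.09 for mRpS28 to −0.07 for mRpS30.

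In P6 ovaries 49 members had a lower signal than in P30 ovaries and 20 a higher one (fit with the label as a covariate, 4 arrays each), with a median log2 difference of −0.15. Over all probe sets 54.9% were lower, with a median of −0.02. An unadjusted p under 0.05 was reached by 8 members, 11.6% of them, all lower in P6 (limma). Over all probe sets this share was 9.74% in either direction and 4.43% among those lower in P6. None passed at an adjusted p under 0.05, the lowest being 0.512 by limma. By the unmoderated test none passed after adjustment and 10 members had an unadjusted p under 0.05 (share of all probe sets not given here). No member reached a 2-fold difference, which 1.64% of all probe sets had with an unadjusted p under 0.05, and the largest was 1.42-fold.

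The 8 members were all of the large subunit, mRpL23, mRpL33, mRpL55, mRpL11, mRpL35, mRpL14, mRpL43 and mRpL18, and no mRpS gene was among them. Their bacterial counterparts, where there are any, lie at different places of the subunit. mRpL23 is at the tunnel exit in bacterial ribosomes, mRpL11 at the base of the stalk where translation factors bind, and mRpL18 beside the ribosomal RNA of the central protuberance. mRpL43 and mRpL55 have no bacterial counterpart.

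mRpL23 had a log2 signal of 11.65 and 11.73 in null P6 arrays and 11.55 and 11.54 in het P6 arrays, against 11.85 and 12.07 in null P30 arrays and 11.98 and 12.28 in het P30 arrays. Every P6 array thus lay below every P30 array. Its mean was 11.62 ± 0.09 in P6 and 12.05 ± 0.18 in P30 (SD, n = 4 each), a log2 difference of −0.43 (SE 0.12; limma, unadjusted p = 0.010, adjusted p = 0.512; exact two-sided permutation test, p = 0.0286, the smallest that 4 against 4 allow).

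mRpL33 had 11.70 and 11.92 in null P6 arrays and 11.64 and 11.79 in het P6 arrays, against 11.96 and 12.18 in null P30 arrays and 12.03 and 12.29 in het P30 arrays (log2 difference −0.35, SE 0.12). mRpL55 had 11.47 and 11.88 in null P6 and 11.56 and 11.71 in het P6 arrays, against 11.88 and 12.05 in null P30 and 11.97 and 12.22 in het P30 arrays (−0.38, SE 0.13). For both, the P6 arrays lay below all P30 arrays, by less than 0.05 at the nearest pair. The other members with this separation were mRpL14, mRpL18, mRpL43 and mRpL20, the last named after its values were seen, which made 7 members or 10.1%, against 3.11% of all probe sets. No member had all P6 arrays above all P30 arrays (2.64%). mRpL11 (−0.39, SE 0.14) and mRpL35 (−0.42, SE 0.16) overlapped, as null 4, a P6 array, lay among the P30 arrays.

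Among small subunit members the lowest differences were those of mRpS5 (−0.41, SE 0.20), mRpS18C (−0.36, SE 0.19) and mRpS25 (−0.31, SE 0.15). The members with the highest signals in P6 relative to P30 were mRpL38 (0.51, SE 0.30), mRpS35 (0.41, SE 0.20), mRpL9 (0.41, SE 0.19), mRpL45 (0.38, SE 0.16), mRpS29 (0.36, SE 0.16), mRpS30 (0.33, SE 0.17), mRpL1 (0.25, SE 0.15) and mRpS31 (0.22, SE 0.19). mRpS29 is the homologue of the human GTP-binding protein DAP3, and mRpL1 belongs to the stalk through which spent tRNA leaves in bacteria. The human homologue of mRpS30 has been placed in the large subunit in spite of its name. mRpL38 had a log2 signal of 11.07 and 9.81 in null P6 arrays and 10.76 and 10.53 in het P6 arrays, against 10.22 and 10.02 in null P30 arrays and 10.31 and 9.59 in het P30 arrays. Null 3 was its highest array and het 2 its lowest, and null 4 lay among the P30 arrays.

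The count of 8 changed when 1 array was left out. It was 1 without the array labelled het 2 or without het 3, and 3 without het 4 or without null 2. It was 5 without het 1 or without null 3, 17 without null 1 and 23 without null 4. The share of all probe sets at this threshold is not given for these fits, so the counts cannot be set against it. The median difference stayed between −0.20 (without null 2) and −0.08 (without het 2), and 46 to 56 members were lower in P6 (share of all probe sets not given here).

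**Figure D2:**
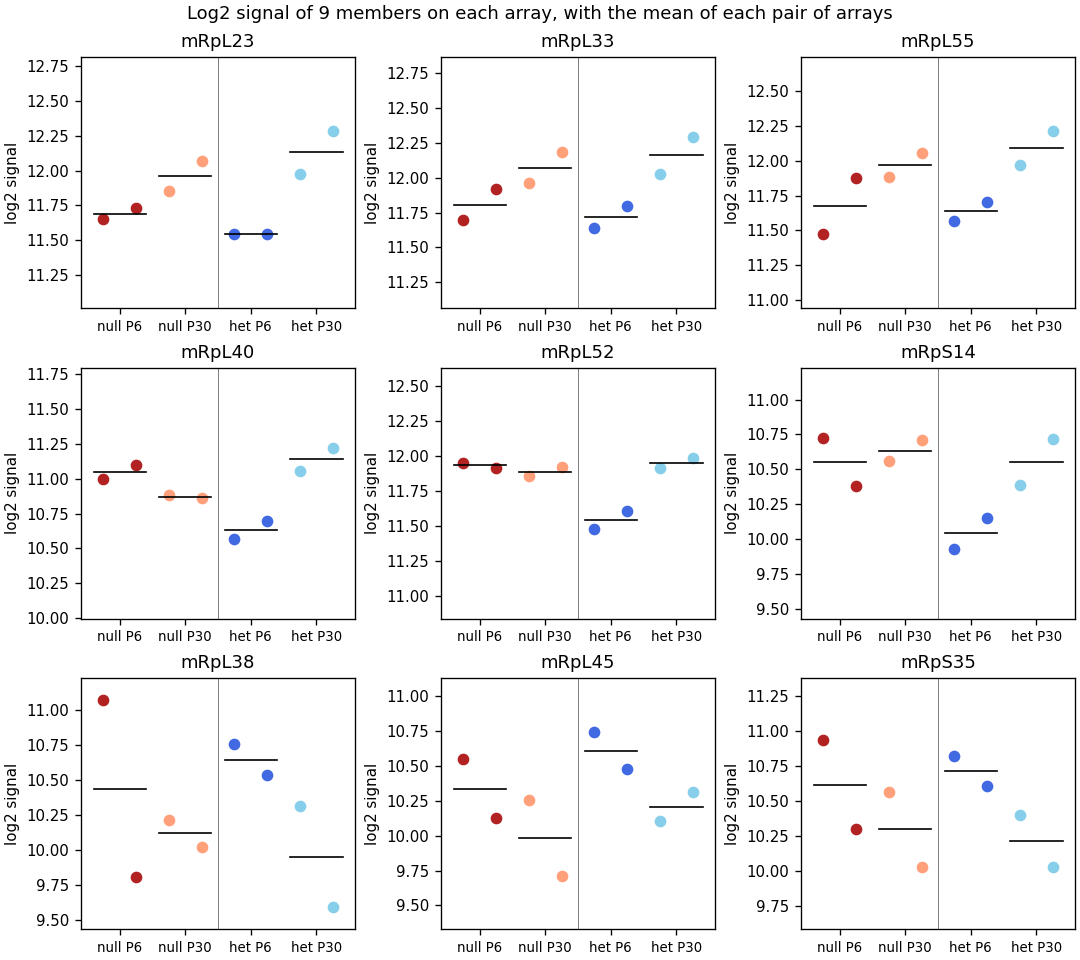
Log2 signal (vertical axis, the same span in every panel) of 9 members in null P6, null P30, het P6 and het P30 ovaries, with 1 point per array and a line at the mean of each pair of arrays. mRpL23 lies lower in P6 than in P30 under both labels, mRpL40 and mRpL52 are lowest in het P6, and mRpL38, mRpL45 and mRpS35 lie higher in P6 with a wide spread between replicates.

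The background difference was small in null and larger in het ovaries. In null, 28 members had a lower mean in P6 than in P30, with a median log2 difference of 0.04, and both null P6 arrays lay below both null P30 arrays for 7 members (10.1%, against 14.9% of all probe sets) and above them for 5 members (7.25%, against 13.4%). In het, 53 members had a lower mean in P6, with a median of −0.33, and for 48 members (69.6%, against 26.8% of all probe sets) both het P6 arrays lay below both het P30 arrays. The array labelled het 2 had the highest signal of 39 members, and het 3 and het 4 had the lowest signal of 29 and 14. The shares of all probe sets with these extremes, or with a lower mean in P6 within a label, are not given here. Among 448 other genes with a mean over 9 and an annotated length of up to 1000 bases, het 2 was high as well. Their median deviation from the gene's mean was 0.32 in het 2, −0.35 in het 3 and −0.18 in het 4.

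The same values can be read as a label difference that turned with the background. Within P6, 58 members were higher in null than in het (median log2 difference 0.15), whereas within P30, 13 were higher in null and 56 lower (median −0.10). A total of 51 members were higher in null in P6 and lower in null in P30. Over all probe sets, 51.9% were higher in null in P6 and 42.7% in P30, and the share with both signs is not given here. Of 448 other genes with a mean over 9 and an annotated length of up to 1000 bases, 392 were higher in null in P6. Of the same 448 genes, 363 were lower in null in P30. The interaction, the null minus het difference in P6 minus that in P30, was positive for 60 members, 87% against 56.1% of all probe sets, with a median of 0.29. Only mRpL40, mRpL52 and mRpL27 reached an unadjusted p under 0.05, 4.35% of the members against 1.13% of all probe sets (limma), all 3 with a positive interaction, as 0.522% of all probe sets had. None passed after adjustment (lowest adjusted p = 1.00). The unmoderated test gave 12 members an unadjusted p under 0.05 (share of all probe sets not given here) and none an adjusted one.

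mRpL40, a member without a bacterial counterpart, had the largest interaction. Its log2 signal was 10.99 and 11.10 in null P6 arrays and 10.57 and 10.70 in het P6 arrays, a difference of 0.41 (SE 0.13). In P30 it was 10.88 and 10.86 in null arrays and 11.06 and 11.22 in het arrays, a difference of −0.27 (SE 0.13). Null arrays were thus above het arrays in P6 and below them in P30, with no overlap in either, and the interaction was 0.68 (SE 0.19, unadjusted p = 0.012).

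mRpL52 had 11.95 and 11.91 in null P6 arrays and 11.48 and 11.61 in het P6 arrays, and 11.86 and 11.92 in null P30 arrays and 11.92 and 11.99 in het P30 arrays. Its het P6 arrays stood apart and the other 6 lay between 11.86 and 11.99. mRpL27, whose bacterial counterpart reaches into the peptidyl transferase centre, also had its lowest signals in the het P6 arrays (interaction 0.50, SE 0.20). The interactions of mRpS18C (0.62, SE 0.32), mRpL10 (0.55, SE 0.24) and mRpS24 (0.55, SE 0.33) were next in size to that of mRpL40, with a larger error.

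Within P6, 7 members had an unadjusted p under 0.05, all higher in null (10.1%, against 0.799% of all probe sets), and none passed after adjustment (lowest adjusted p = 1.00). They were mRpL54 (log2 difference 0.46), mRpL52 (0.39), mRpL40 (0.41), mRpL36 (0.39), mRpS14 (0.51), mRpS34 (0.36) and mRpL27 (0.36). Both null P6 arrays lay above both het P6 arrays for 31 members (44.9%, against 13.9% of all probe sets). Within P30 no member had an unadjusted p under 0.05 (limma, 1.54% of all probe sets), and both null arrays lay below both het arrays for 16 members (23.2%, against 16.3%). A fit of the P6 arrays alone, with 2 arrays per label, gave 1 member an unadjusted p under 0.05. The interaction was positive for 62 members (median 0.25) without the arrays labelled het 2 and null 4, and for 50 without null 2. The shares of all probe sets are not given for the fits with arrays left out or of P6 alone.

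**Figure D3:**
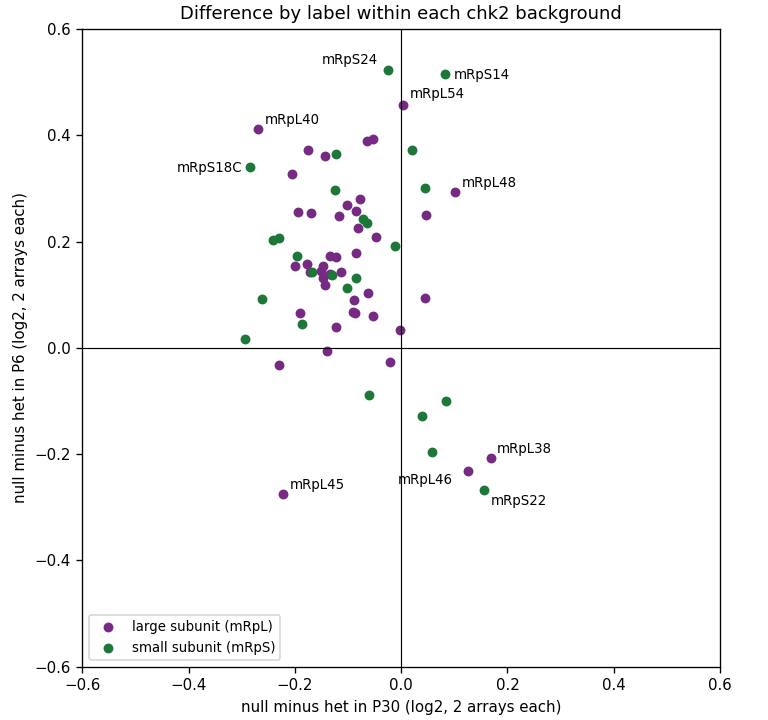
Null minus het log2 difference of each member in P6 (vertical axis) and in P30 (horizontal axis), 2 arrays per label in each, with large subunit members in purple and small subunit members in green. Most points (51 of 69) lie in the upper left, higher in null in P6 and lower in null in P30.

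The members did not all vary together. Over the 8 arrays the median Pearson correlation of 2 members was 0.44 (Spearman 0.38), against 0.04 over all pairs of the 4131 genes with a mean over 9. It was 0.43 within the large and 0.43 within the small subunit, 0.22 among 41 cytosolic ribosomal protein genes and 0.12 among 72 genes of oxidative phosphorylation. Among 448 other genes with a mean over 9 and an annotated length of up to 1000 bases it was 0.69, higher than among the members, and among 3606 longer ones 0.07. A first principal component held 60.4% of the members' variance. The first component held 55.0% over the 4131 genes with a mean over 9 and 44.3% among the 448 other short genes. Among the cytosolic ribosomal protein genes it held 50.4%, and among those of oxidative phosphorylation 67.8%. All correlations here share the same 8 arrays and their normalization and are given as descriptions. After each genotype's mean was taken out, the median correlation of 2 members was 0.20.

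A main body of 44 members correlated above 0.5 with the mean of the others, led by mRpL30 (r = 0.97), mRpL27 (0.96), mRpL49 (0.93) and mRpL36 (0.91). A smaller set of 10 members correlated below 0, the lowest being mRpL38 (−0.42), mRpS30 (−0.37), mRpS35 (−0.35) and mRpS29 (−0.32). These 4 had their lowest signal in het 2 or null 2, the arrays of P30 replicate 2. mRpS35 had a log2 signal of 10.57, 10.03, 10.94 and 10.30 in null 1 to 4, against 10.40, 10.02, 10.82 and 10.61 in het 1 to 4, so that the replicate 2 arrays lay below and the replicate 3 arrays above the rest.

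The annotated genes of the 44 members had a median length of 826.5 bases (468 to 1772), and those of the 10 members a median of 1338 bases (851 to 2242), a difference that was not tested. The members are short genes, with an annotated length of 468 to 13391 bases, introns included, and a median of 909 (RefSeq annotation of genome release 6, available for all 69). Of the 40 members of up to 1000 bases, 37 were lower in P6 (median −0.21), the 8 at an unadjusted p under 0.05 among them. Of the 29 longer members, 12 were lower and 17 higher (median 0.05), with none at an unadjusted p under 0.05. Other genes with a mean over 9 split the same way. Of 448 such genes of up to 1000 bases, 418 were lower in P6 (median −0.29, 106 at an unadjusted p under 0.05), and of 3606 longer ones 1465 were lower (median 0.10). The interaction, too, was positive for 39 of the 40 short members (median 0.32) and 400 of the 448 other short genes (0.33), and for 21 of the 29 longer members (0.20) and 1725 of the 3606 longer other genes (−0.03). Spearman's correlation of length with the P6 minus P30 difference was 0.54 across the 69 members and 0.33 across 4123 genes with a mean over 9, and with the null minus het difference −0.42 and −0.40. Genes are not independent replicates, and the length bound was chosen after the data were seen.

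**Figure D4:**
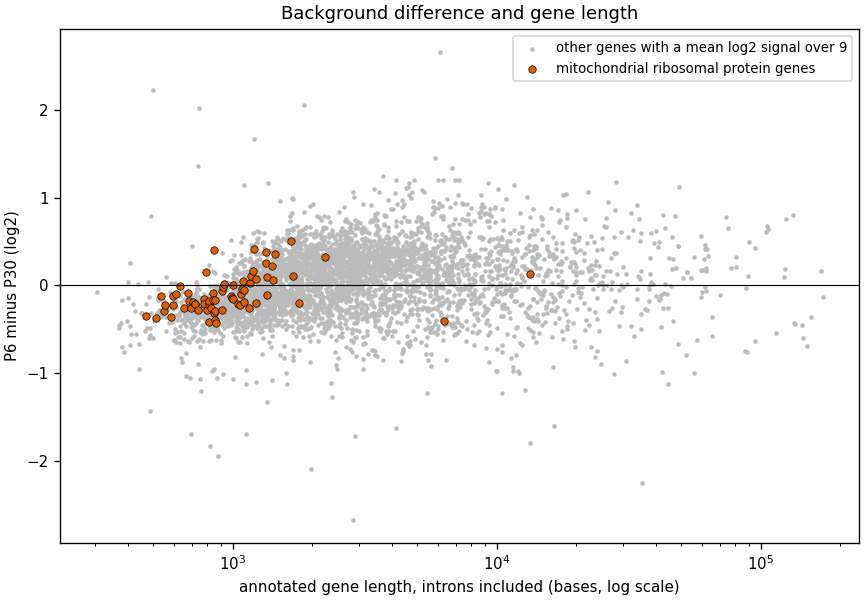
P6 minus P30 log2 difference (vertical axis) against annotated gene length (horizontal axis, log scale) for the 69 members in orange and 4054 other genes with a mean log2 signal over 9 in grey. Members of up to 1000 bases lie mostly below 0, as do other genes of that length.

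Array by array, the values of the short members lay near those of other short genes, with the widest gap in null 3. In null P6 arrays (replicates 3 and 4) the median deviation from the gene's mean was −0.0022 and 0.05 for the short members and −0.22 and 0.14 for the other short genes, and in null P30 arrays (replicates 1 and 2) 0.02 and 0.08 for the short members and 0.02 and 0.16 for the others. In null 3 the short members thus lay near their mean while other short genes lay below theirs. In het P6 arrays the short members had −0.24 and −0.18 and the other short genes −0.35 and −0.18, and in het P30 arrays 0.09 and 0.25 for the short members and 0.08 and 0.32 for the others. The longer members had 0.12 and −0.0066 in null P6 arrays and 0.09 and −0.22 in null P30 arrays, with −0.05, 0.03, 0.04 and 0.06 in het 3, het 4, het 1 and het 2. Follicle cell markers had their highest mean levels in null 3 and het 3 (10.07 and 10.03) and their lowest in null 2 and het 2 (8.41 and 8.35). The part of gene length or of follicle cells in the members' differences was not tested.

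**Figure D5:**
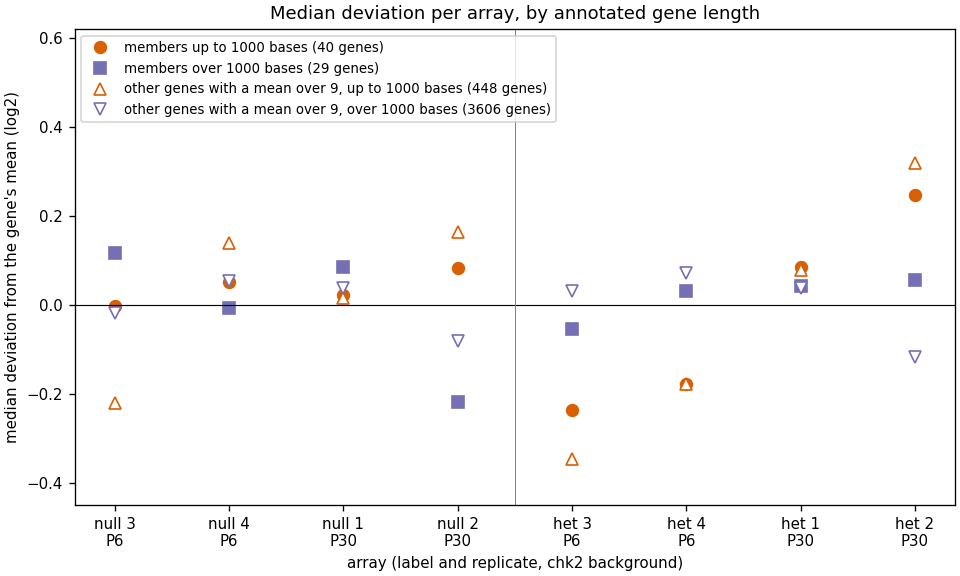
Median deviation from the gene's mean (vertical axis, log2) on each array for the 40 members of up to 1000 bases, the 29 longer members, and the 448 shorter and 3606 longer other genes with a mean over 9. Members (filled) of up to 1000 bases are low in het 3 and het 4 and high in het 2, as are other genes of that length (open).

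Both subunits had similar medians. In P6 minus P30, 31 of 44 large subunit members and 18 of 25 small subunit members were lower, with medians of −0.15 and −0.14. In null minus het the medians were 0.02 and 0.0030, and the interaction was positive for 40 and 20 members (medians 0.28 and 0.31). By origin, all 43 measured bacterial-type members had a positive interaction (median 0.30), and of the 26 others 17 did (median 0.24), with annotated lengths of a median 925 and 882 bases. This difference between the sets was not tested. Of 22 members on chromosome 2, which carries ote and chk2 and differs between the groups, 19 were lower in P6 (median −0.17). Of the 47 on other chromosomes 30 were lower (median −0.12). In null minus het, 14 of the 22 (median 0.06) and 27 of the 47 (median 0.0038) were higher. The interaction was positive for 21 of the 22 (median 0.35) and 39 of the 47 (median 0.26). The part of the chromosome was not tested.

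A group of 3 members are paralogs of the bacterial protein S18. mRpS18A, whose human homologue lies in the large subunit, had a P6 minus P30 difference of −0.09 (SE 0.12), mRpS18B 0.02 (SE 0.12) and mRpS18C −0.36 (SE 0.19). mRpS18C, the most variable of them, had a log2 signal of 9.46 and 9.89 in null P6 and 9.46 and 9.21 in het P6 arrays, against 9.69 and 9.76 in null P30 and 9.80 and 10.22 in het P30 arrays. Its range was set by the het arrays, with het 4 lowest and het 2 highest. For all 3 paralogs the interaction was positive, at 0.42, 0.37 and 0.62 for A, B and C.

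The second probe sets and the shared ones gave the same directions. The dimmer probe set of mRpS11 had a P6 minus P30 difference of −0.54 (unadjusted p = 0.021), and the one that stood for the gene −0.23 (unadjusted p = 0.095). The dimmer probe set of mRpL47 had −0.09 and the brighter −0.04. The probe set shared by mRpS10 and CG34316 had −0.25, and that shared by mRpL53 and CG33155 −0.31, and which gene gave these signals is not known. A further 2 proteins of the mitochondrial small subunit have other names. bonsai, a homologue of bacterial S15, had 12.71, 12.63, 12.69 and 12.63 in null 1 to 4, against 12.50, 12.84, 12.37 and 12.49 in het 1 to 4 (log2 difference 0.12, SE 0.12). tko, a homologue of bacterial S12 at the decoding site, had 10.43, 10.12, 11.27 and 10.49 in null 1 to 4, against 10.29, 11.20, 10.53 and 10.89 in het 1 to 4 (−0.15, SE 0.29). The interaction was 0.23 for bonsai and 0.64 for tko, positive as for most members (unadjusted p = 0.347 and 0.293).

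Other mitochondrial genes lay on either side of 0 in P6 minus P30, and the lists differed in gene length. Of 14 mitochondrial tRNA synthetase genes, 12 were higher in P6 (median 0.20, median annotated length 2640 bases), among them ValRS-m (0.49, SE 0.14, unadjusted p = 0.011). Of 8 measured mitochondrial translation factors, 6 were higher (median 0.32, median length 1804 bases), with mRF1, the release factor, at 0.40 (SE 0.18) and mRRF1, the recycling factor, at −0.35 (SE 0.23). Of 13 measured genes that replicate, transcribe or process the mitochondrial genome, 10 were higher (median 0.34, median length 1766 bases), with PolG1, the catalytic subunit of the mitochondrial DNA polymerase, at 1.01 (SE 0.33, unadjusted p = 0.018). Nuclear genes of oxidative phosphorylation, whose products assemble with those the mitochondrial ribosome makes, were lower in 45 of 72 (median −0.12, median length 1095 bases). Of these, 13 had an unadjusted p under 0.05 (limma), where 4.43% of all probe sets were lower. COX4L had the largest difference, −1.64 (SE 0.35), with log2 signals of 4.31 to 7.70, and was the only 1 past 2-fold at this p. COX8 had −0.42 (SE 0.10). Of 41 genes picked by symbol as cytosolic ribosomal protein genes, 33 were lower (median −0.06, median length 1073 bases). The only 1 with an unadjusted p under 0.05 was RpLP0-like (−0.33, SE 0.13), which the symbol pattern takes in as well. Of 20 measured genes of mitochondrial import and folding 11 were lower (median −0.03), and of 5 measured regulators of mitochondrial biogenesis 4 were higher (median 0.22). In null minus het, the medians of these lists lay between −0.08 and 0.04. Only Tim13, a small chaperone of the intermembrane space, and ewg, a homologue of the human NRF1 transcription factor, had an unadjusted p under 0.05, both lower in null (−0.31, SE 0.09 and −0.51, SE 0.22; limma, unadjusted p = 0.0088 and 0.049). Tim13 was dim, with log2 signals of 4.25 to 4.39 in null and 4.49 to 4.72 in het arrays that did not overlap. Both were named after their values were seen. No gene of these lists passed either comparison after adjustment.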

How the data were processed

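The deposited values are log2 signals per probe set, which the authors made with RMA. Software was Affymetrix Expression Console 1.4.1 according to the submitters' processing notes, but the Transcriptome Analysis Console according to the study's methods. RMA sets all arrays to one distribution, so a shift common to all genes cannot be seen. The raw images were not analysed here. Control probe sets (183 of 18952) were left out, and 18769 were tested with limma 3.58.1 in R 4.3.3, with p adjusted over all of them by Benjamini-Hochberg. Null was compared with het without a covariate, P6 with P30 with the label as a covariate, and both within each background and for their interaction in a fit of the 4 groups. A log2 difference of 1 is a 2-fold difference. Gene names came from the platform annotation, updated through RefSeq. The labels call the samples biological replicates but tie them to no separate crosses, so p-values measure the spread between these samples only, and with 4 arrays per label their number limits how precise a difference can be.

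Members, gene lists and tests were chosen with earlier results of these data known. Named members were the 8 with the largest differences in each direction per comparison, those at an unadjusted p under 0.05 or without overlap (up to 8), the 4 with the largest interactions, those at the ends of the orders by SD and by correlation with the other members, and the mRpS18 paralogs. The fits were tested on simulated data. The unmoderated test was an analysis of variance with equal variances. The methods name a one-way analysis of variance for null against het only, and its use for P6 minus P30 and for the interaction was added here. Other alternatives were other normalizations, priors, weights, filters, probe sets, folds, blocks and omitted arrays.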

Additional observations from a re-analysis of the deposited data

Results flagged for a closer look

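Each of the 42 named members was examined for a lone array among the 4 of a label, 84 groups in all, by Dixon's criterion at the 95% level, which chance alone meets in about 1 of 20 groups. It was met 2 times, both in null. mRpL1 had a log2 signal of 11.43 in null 2, against 12.08, 12.07 and 12.15 in null 1, null 3 and null 4, while the 4 het arrays lay between 11.98 and 12.14. mRpL11 had 11.39 in null 3, against 11.79, 11.87 and 11.81 in null 1, null 2 and null 4, and 11.40 to 12.17 in the het arrays.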

How the results depend on the processing

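No member passed at an adjusted p under 0.05 in null minus het, P6 minus P30 or the interaction, under any alternative run. With an unadjusted p under 0.05, none reached a fold of 2 in null minus het or P6 minus P30 under any alternative, and none a fold of 1.5 or 3 with all arrays. In the interaction, 1 (mRpL40) reached a fold of 1.5 with all arrays and 0 a fold of 2 or 3, while 0 to 1 reached a fold of 2 with 1 array left out (mRpS22 without null 3) and 1 without the arrays labelled het 2 and null 4 (mRpL2), both named after their values were seen. For null minus het, P6 alone gave a median of 0.15 and 1 member at an unadjusted p under 0.05, and P30 alone left 13 members higher in null. The count at an unadjusted p under 0.05 was 1 with array weights, 2 without the arrays labelled het 2 and null 4, and 0 to 3 with 1 array left out. For P6 minus P30 it was 26 with array weights, 5 with median centring, 5 with a trended and robust prior, 1 with a filter on dim probe sets and 1 to 23 with 1 array left out. For the interaction it was 12 by the unmoderated test. It was 1 with array weights, with cyclic loess and without the arrays labelled het 2 and null 4. It was 0 with a trended and robust prior and with the filter, and 1 to 6 with 1 array left out. It was also 1 without het 1 and null 1, an omission chosen after seeing the data. The cause was not tested, and the share of all probe sets is not given for these alternatives. The median correlation of 2 members was 0.20 on residuals and 0.34 to 0.52 with 1 array left out, and the first component held 54.7% by ranks, 67.0% on residuals, 53.5% with cyclic loess and 55.0% to 66.0% with 1 array left out.

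With the replicate number as a block (replicate block), the null minus het median stayed at 0.01, with 41 members higher and 0 at an unadjusted p under 0.05. Same-numbered arrays deviated together for replicates 2 and 3 (r = 0.38 and 0.54) and not for 1 and 4 (−0.0018 and −0.10), so the numbers were not taken as pairs. Of 1722 recomputed differences of named members, 159 had the other sign, 126 of them in null minus het, and none was a called value.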
